A study of Mus musculus with 25 samples.

Results

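A single liver tumour from a mouse given PIK3CA H1047R was set against 5 liver tumours from mice given PIK3CA E545K. These 6 tumour arrays were chosen by their titles, out of 25 Illumina bead arrays of mouse liver RNA, and every gene measured on them was compared. Per the labels, every animal was a C57BL/6J x 129Sv mouse injected with either a PIK3CA mutant or an empty vector. The H1047R tumour came from a mouse aged 12 months (1 array) and the E545K tumours from mice aged 5 months (5 arrays). Normal liver of empty-vector mice aged 6 months (5 arrays) and 3 months (4 arrays) gave the level without a PIK3CA mutant. Preneoplastic livers of H1047R mice aged 3 months (4 arrays) and 6 months (1 array) and of E545K mice aged 3 months (5 arrays) were used for a few genes. Mutation and age change together between the tumours, so they cannot be told apart, and no control of 5 or 12 months was used here. The H1047R tumour has no replicate, and the labels do not say that each array came from its own animal. A p-value for the H1047R tumour against the E545K tumours measures its array against the spread of the 5 E545K arrays. It assumes that the H1047R array varies as they do. Fits with more arrays and comparisons of other groups use the spread of the arrays named with them.

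PIK3CA encodes p110 alpha, the catalytic subunit of phosphoinositide 3-kinase, which makes the membrane lipid that recruits the kinase AKT. In hepatocytes this pathway carries the insulin signal, turns on fat and glycogen synthesis and turns off glucose release. H1047R lies in the kinase domain of p110 alpha and E545K in its helical domain, and both are recurrent activating mutations in human cancers.

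Signals are given as log2 of the normalized signal, where a step of log2 1 is 2-fold, and the lowest signal called detected lay between 4.59 and 4.69 on the 6 tumour arrays. Detected probes numbered 18391 on the H1047R array and 16734 to 18010 on the E545K arrays. The hepatocyte markers measured (7 of 8) were all detected in the H1047R tumour, with a mean of 11.93, against 11.94 to 12.34 in the E545K tumours. Mouse Pik3ca itself was at 5.12 in the H1047R tumour, inside the E545K range of 4.68 to 5.49. The labels do not give the species of the injected sequence, so it is not known whether this probe also measures the construct.

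E545K tumour 1 stood apart from the other tumours as much as the H1047R tumour did. In 298 of 11594 genes the H1047R tumour was the highest or the lowest of the 6 arrays by more than log2 1, 206 higher and 92 lower. E545K tumour 1 stood alone in this way in 323 genes, 184 higher and 139 lower. E545K tumours 2 to 5 did so in 35, 26, 29 and 3 genes. The H1047R tumour thus ranked 2 of 6, and the smallest one-sided p that a rank among 6 arrays allows is 0.167. Its correlation over all genes was 0.940 with E545K tumour 1 and 0.949, 0.958, 0.962 and 0.975 with tumours 2 to 5, where the lowest between E545K tumours was 0.948. Genes are not independent replicates, and these correlations describe the arrays only. Counts for gene lists are therefore also given without E545K tumour 1, when 26.2% of all genes lay above the range of the other E545K tumours and 26.5% below it.

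**Figure D1:**
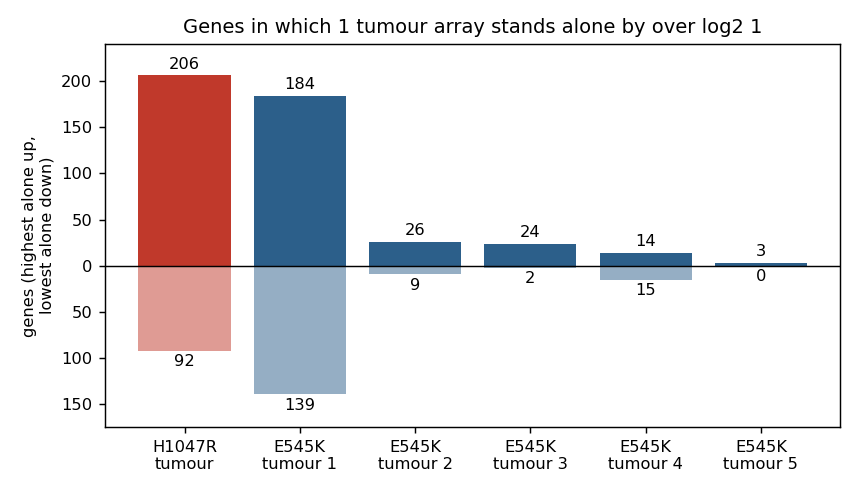
Number of genes (vertical axis) in which each of the 6 tumour arrays was the highest of the 6 (upward bars) or the lowest (downward, paler bars) by more than log2 1. The H1047R tumour (red) and E545K tumour 1 have bars of like size, and E545K tumours 2 to 5 (blue) have between 3 and 35 genes each.

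The H1047R tumour lay above all E545K tumours in many genes of the extracellular matrix, of the hypoxia response and of glucose uptake and breakdown, and below all of them in many genes of amino acid breakdown, periportal hepatocytes and fetal liver. It lay outside the E545K range in 4628 of 11594 genes (39.9%), above the highest E545K tumour in 2293 (19.8%) and below the lowest in 2335 (20.1%). The distance to the nearest E545K tumour, called the gap here, exceeded log2 1 in 206 genes above (1.78%) and 92 below (0.794%). By limma with Benjamini-Hochberg adjustment over all genes, 10 genes were higher at an adjusted p under 0.05 (0.0863%) and 0 were lower, while 1163 had an unadjusted p under 0.05 in either direction. These calls hang on single libraries. All 10 remained without E545K tumour 1, when 29 passed, and without E545K tumour 5, when 33 passed, whereas 0 passed without tumour 2, 3 or 4, when 1002, 1036 and 1062 genes had an unadjusted p under 0.05. The median difference over all genes was -0.02.

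Cidea, a lipid droplet protein that fuses small droplets into large ones and is scarce in lean liver, rose most among the genes called. It was at 11.54 in the H1047R tumour, and the E545K tumours were at 4.50, 5.40, 5.87, 4.63 and 5.36, with 3 of the 5 detected. The H1047R tumour lay far above all 5, by 6.38 over their mean (SE 0.51, adjusted p = 0.0262, limma), which is 83.6-fold. The difference was 4.63 with no background correction and 4.69 with the authors' processed values, and the call was lost with the 6-month controls in the fit (adjusted p = 0.0708, limma). Cidea was also high in other livers of H1047R mice. It was at 10.23 in the 6-month H1047R liver and at 5.46 to 11.82 in those of 3 months (median 9.94, 4 arrays). The E545K livers of 3 months were at 4.62 to 7.55 (median 5.00, 5 arrays), and 6-month controls ran from 4.44 to 8.93, so these groups overlapped. Between both mutations at 3 months the difference of 3.54 (SE 1.10) did not pass over all genes (adjusted p = 0.704, limma).

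Proteins of the cell surface and of membrane traffic made up the next group of calls. H2-M2, a nonclassical class I histocompatibility gene with close relatives in its family, was at 9.20 against 4.71, 5.43, 4.77, 5.05 and 5.68, and rose by 4.07 (SE 0.39, adjusted p = 0.0262, limma). Fxyd3, a small regulator of the sodium pump, was at 7.96 against 4.33, 4.50, 4.80, 4.43 and 4.99, and rose by 3.35 (SE 0.29). Over all other arrays, the preneoplastic livers included, H2-M2 was at most 6.15 and Fxyd3 at most 5.38. Podoplanin, Pdpn, a mucin-like membrane protein of lymphatic endothelium and activated stromal cells, was at 8.80 against 5.99, 5.38, 5.71, 6.14 and 6.13 (difference 2.93, SE 0.32, adjusted p = 0.0467, limma). Rab11fip5, an effector of the recycling endosome GTPase RAB11, was at 9.38 against 6.12, 6.58, 6.39, 6.42 and 6.77 (difference 2.93, SE 0.27), and a second probe for it gave a difference of 2.57. Igsf3, an immunoglobulin-domain membrane protein, was detected in the H1047R tumour at 6.48 and on none of the E545K arrays, which makes it at least 3.55-fold higher. Its difference of 2.07 was 0.75 with no background correction and 0.81 with the authors' values, and neither passed (adjusted p = 0.0617 and 0.0591, limma). The differences of all 10 called genes were smaller without the background correction, at 0.75 to 4.63 in place of 2.07 to 6.38.

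The other 4 calls were a stress chaperone, a chemokine, a collagen chain and a cytochrome. Hspa1a, a heat-inducible HSP70 chaperone, was at 7.59 against 4.52, 4.74, 4.69, 4.49 and 4.40, a difference of 3.02 (SE 0.22, adjusted p = 0.0254, limma). Its levels in 6-month controls ran up to 7.58, as high as in the H1047R tumour, and a near-identical copy, Hspa1b, which was at 4.93 on its own probe, could share signal with it. The call of Hspa1a was lost with all 25 arrays in the fit (adjusted p = 0.0627, limma) and with the 6-month controls in it (adjusted p = 0.144, limma). Ccl8, a chemokine that attracts monocytes and lymphocytes, was at 7.29 against 4.81, 4.78, 4.88, 4.80 and 5.18. Col6a2, a chain of the beaded-filament collagen VI, was at 6.81 against 4.76, 4.64, 4.67, 4.69 and 4.85. Cyp1b1, a cytochrome P450 found mostly outside hepatocytes, was at 6.78 against 4.66, 4.52, 4.56, 4.86 and 4.86. In these 3 genes the E545K tumours lay within a narrow band near the detection limit and the H1047R tumour stood 2.09 to 2.39 above their mean. The calls of H2-M2, Pdpn and Cyp1b1 were lost with the tumours normalized alone, and those of H2-M2 and Pdpn also with no detection filter.

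**Figure D2:**
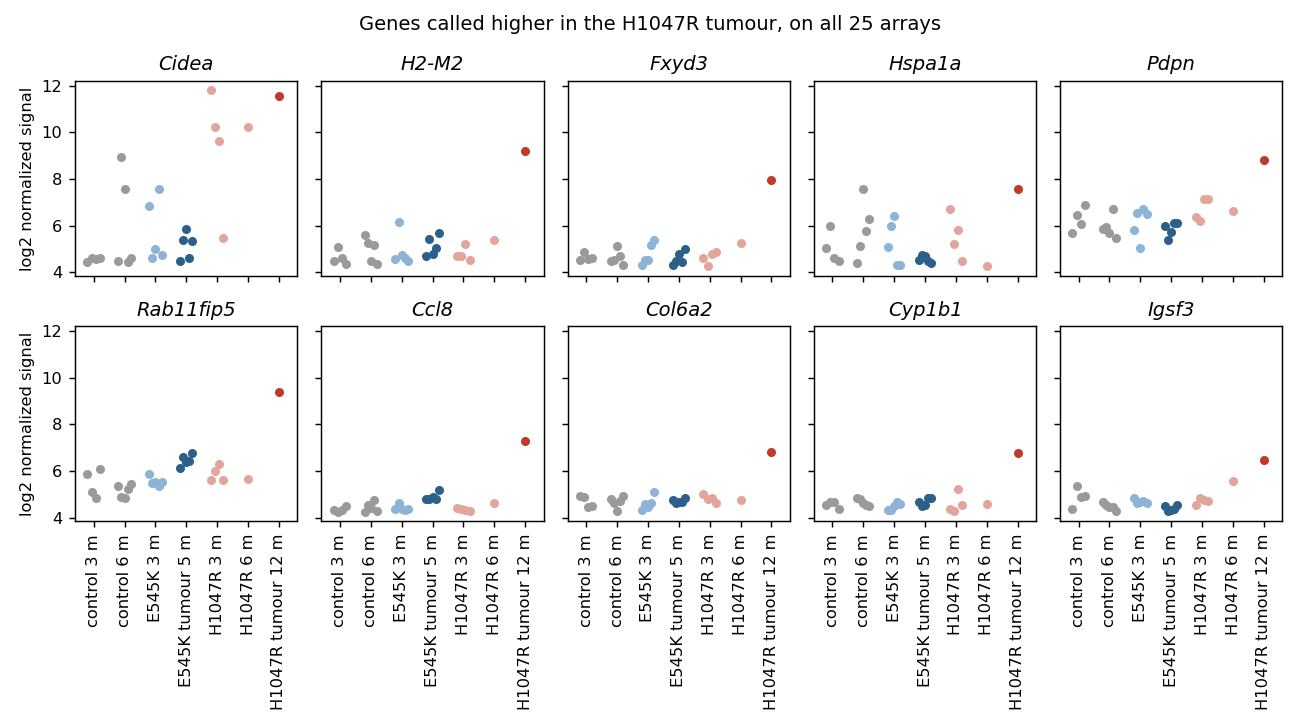
Log2 normalized signal (vertical axis) of the 10 genes called higher in the H1047R tumour, 1 panel a gene and 1 point an array, over all 25 arrays in 7 groups named by treatment and age in months (m). The H1047R tumour (red) lies above every other array except in Cidea, where an H1047R liver of 3 months reaches 11.82, and in Hspa1a a 6-month control at 7.58 is level with it at 7.59.

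The same 10 genes were looked up in the preneoplastic livers of 3 months, whose arrays are not those of the tumours. The difference of the means, H1047R minus E545K, was 3.54 in Cidea, 0.59 in Pdpn and between -0.14 and 0.33 in the others. The groups overlapped in all 10 (2.27% of all genes tested did not overlap). Of the 10 genes 0 passed (limma, Benjamini-Hochberg), nor did any other gene, while 713 of all genes tested had an unadjusted p under 0.05. The plot of the called genes by group shows Cidea alone with an H1047R liver of 3 months above the tumour. In Cidea these livers were at 11.82, 10.22, 9.65 and 5.46, where the tumour was at 11.54.

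Genes with the widest gaps above the E545K range that did not pass were Chst1, Mgarp, Loxl1, Nupr1 and Vim. Chst1, which adds sulfate to keratan chains, was at 9.23 against 4.72, 4.56, 4.84, 4.61 and 6.07 (adjusted p = 0.0695, limma). Mgarp, a mitochondrial protein induced by hypoxia, was at 8.15 against 4.46, 4.83, 4.65, 4.28 and 5.37 (adjusted p = 0.0517, limma). For both, E545K tumour 5 was the closest. At 3 months Mgarp ran from 4.39 to 10.28 with H1047R and from 4.26 to 9.42 with E545K. Nupr1, a stress-induced nuclear protein, was at 12.35 against 9.56, 9.61, 9.57, 7.66 and 9.25. Vim, the intermediate filament of mesenchymal cells, was at 10.78 against 6.39, 6.09, 7.11, 5.89 and 8.09, and Loxl1, which crosslinks elastin, at 9.66 against 6.04, 5.04, 6.27, 6.88 and 6.92. Loxl1 was the one gene among the 15 named for gaps above the E545K range whose 3-month H1047R livers (7.16 to 7.54) lay wholly above those with E545K (6.19 to 7.14), as 1.33% of all genes did, a difference of 0.73 (SE 0.18) that did not pass over all genes (adjusted p = 0.671, limma).

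Of the gene lists, those of hypoxia and angiogenesis, T and NK cells, and stellate cells and matrix had the largest shares of members above the E545K range among the lists plotted. Amino acid breakdown, erythroid and periportal genes had the largest shares below it. Some genes stand in more than 1 list, such as Slc2a1 and Hilpda. Lists describe where the H1047R array lay, and 1 array gives no spread of its own, so none of these shares carries a test. Bulk tissue cannot tell fewer cells of a type from less RNA per cell.

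**Figure D3:**
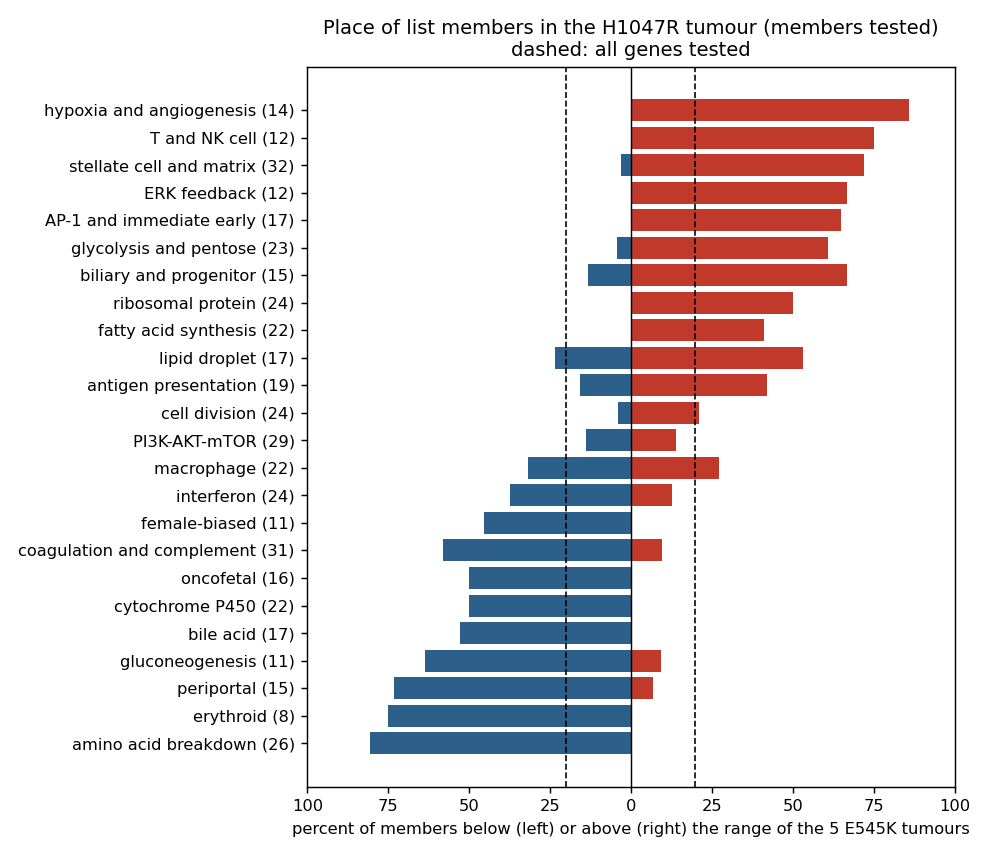
Share of each list's tested members (number in brackets) that lay above (red, right) or below (blue, left) the range of the 5 E545K tumours in the H1047R tumour, in percent; dashed lines mark the shares over all 11594 genes, 19.8% above and 20.1% below. Hypoxia and angiogenesis genes extend farthest to the right and amino acid breakdown genes farthest to the left.

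Hypoxia stabilises the HIF transcription factors, which turn on glucose uptake, glycolysis and vessel growth. Of 14 hypoxia and angiogenesis genes tested, 12 lay above the E545K range, 7 of them by more than log2 1, and none below; the median difference was 1.73. Without E545K tumour 1 the counts were 13 and 8. None was called. Ndrg1, a hypoxia-induced stress protein, was at 9.05 in the H1047R tumour and at 6.70, 6.22, 6.16, 5.77 and 7.13 in the E545K tumours. Slc2a1, the glucose transporter GLUT1, was at 10.88 against 8.11, 8.42, 8.48, 7.54 and 9.15. Angpt2, a ligand that loosens vessel walls, was at 10.42 against 7.85, 7.35, 7.74, 6.33 and 8.85. In all 3 the H1047R tumour was highest and E545K tumour 5 came next. Hilpda, which blocks lipid droplet breakdown, was at 10.65 against 7.96 to 9.12. Egln3, an oxygen-sensing prolyl hydroxylase, was at 10.39 against 7.90 to 8.94. Ankrd37 was at 9.11 against 5.93 to 7.55 but within the range of the 6-month controls, 4.43 to 9.12. P4ha2, which hydroxylates collagen, was at 7.97 against 5.23 to 6.56. Vegfa, the main growth factor of endothelium, was at 10.50 against 9.29 to 9.90 but within the range of the 6-month controls. Angptl4 (11.38) and Egln1 (4.94) lay inside the E545K range.

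The promoters of 4 of these genes are printed because these genes lay above the E545K range together and HIF is known to bind the letters ACGTG or GCGTG. Each runs from 250 bases before to 50 bases after the start of the gene in RefSeq (build GRCm38.p6), 5′ to 3′ on the gene's strand. Capitals mark ACGTG or GCGTG on either strand, where CACGT and CACGC are the same letters read on the other strand, and neighbouring or overlapping matches run together. Ankrd37 lies at chr8:45999801-46000100 on the minus strand, Egln3 at chr12:54203825-54204124 on the minus strand, P4ha2 at chr11:54100674-54100973 on the plus strand and Slc2a1 at chr4:119108495-119108794 on the plus strand.
Ankrd37: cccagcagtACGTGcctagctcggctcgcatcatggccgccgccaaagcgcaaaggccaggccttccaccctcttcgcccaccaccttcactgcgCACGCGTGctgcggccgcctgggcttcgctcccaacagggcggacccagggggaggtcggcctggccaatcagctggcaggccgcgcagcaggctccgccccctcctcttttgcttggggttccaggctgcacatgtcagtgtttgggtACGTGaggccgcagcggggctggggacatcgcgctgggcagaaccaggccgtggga
Egln3: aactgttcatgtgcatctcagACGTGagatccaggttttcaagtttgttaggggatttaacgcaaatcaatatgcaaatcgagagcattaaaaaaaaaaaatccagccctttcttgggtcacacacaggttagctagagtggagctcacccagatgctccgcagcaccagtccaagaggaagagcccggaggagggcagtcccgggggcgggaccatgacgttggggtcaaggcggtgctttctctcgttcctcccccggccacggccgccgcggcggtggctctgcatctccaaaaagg
P4ha2: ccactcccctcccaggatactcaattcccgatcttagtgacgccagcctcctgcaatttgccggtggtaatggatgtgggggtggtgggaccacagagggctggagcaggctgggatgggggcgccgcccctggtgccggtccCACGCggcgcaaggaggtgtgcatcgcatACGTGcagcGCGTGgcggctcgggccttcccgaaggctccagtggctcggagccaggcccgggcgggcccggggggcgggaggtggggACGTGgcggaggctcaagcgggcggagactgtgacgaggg
Slc2a1: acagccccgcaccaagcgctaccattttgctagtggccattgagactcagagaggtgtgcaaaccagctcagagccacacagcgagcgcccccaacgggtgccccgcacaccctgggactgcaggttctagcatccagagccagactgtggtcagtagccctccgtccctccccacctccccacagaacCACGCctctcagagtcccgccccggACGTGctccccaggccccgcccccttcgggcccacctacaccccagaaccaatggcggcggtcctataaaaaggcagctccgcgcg
Of the 14 hypoxia genes tested, 11 had a promoter in the table. ACGTG stood in at least 1 promoter of 10 of these 11 genes (90.9%) and in 28.8% of the 9208 tested genes with a promoter. Either motif stood in all 11 and in 65.3% of the tested genes. The list was made of hypoxia genes, so its share of HIF letters was not independent of that choice. The 11 also include Egln1, which lay inside the E545K range, so the share is not one of genes above it. A match is a description of the letters and not a binding site, and it says nothing about the factor's activity in the tumour.

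Glycolysis genes shared this pattern. Of 23 genes of glycolysis and the pentose phosphate path, 14 lay above the E545K range, 5 by more than log2 1, and 1 lay below (median difference 0.43, none called; 15 above and 1 below without E545K tumour 1). Pkm, the pyruvate kinase form of growing tissue, was at 12.11 against 8.40, 8.97, 8.67, 7.29 and 10.14. Hk2, a hexokinase nearly absent from normal hepatocytes, was at 11.56 against 9.40, 8.21, 8.48, 6.77 and 9.75. Pfkp, the platelet form of phosphofructokinase, was at 8.77 against 4.95, 7.17, 6.14, 5.31 and 6.22. The H1047R tumour was the highest of the 6 in all 3, and the E545K tumours spread over 2 or more log2 steps. Pgk1 was at 12.04 against 9.43 to 10.80. The member below the range was Slc2a2, the hepatocyte glucose transporter GLUT2, at 8.16 against 9.19 to 10.11. Pklr, the liver pyruvate kinase (6.21), lay inside the range.

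Matrix genes are made in liver mainly by stellate cells and fibroblasts. Of 32 stellate cell and matrix genes tested, 23 lay above the E545K range, 15 by more than log2 1, and 1 below, with a median difference of 1.80; Col6a2 was the one called. Without E545K tumour 1 the counts were 25, 16 and 1. Timp1, an inhibitor of matrix proteases, was at 11.96 against 7.76, 7.14, 8.24, 7.46 and 9.82. Col1a1, the main fibrillar collagen chain, was at 9.32 against 5.79, 5.07, 5.06, 6.54 and 6.98, and Col3a1, its partner in reticular fibres, at 8.10 against 4.94 to 6.49. The H1047R tumour was the highest of the 6 in each. Col6a1 and Col6a3, the other chains of collagen VI measured, were at 9.56 against 6.00 to 7.30 and at 11.51 against 7.13 to 9.40. Fibrillin 1, Fbn1, was at 9.79 against 6.43 to 7.63, and lumican, Lum, at 7.29 against 5.05 to 5.81. Several genes of the stellate cells themselves lay inside the range or below it. Acta2 (10.24), Des (5.87) and Dcn (11.90) were inside the E545K range, Lrat, which stores retinol as ester, was inside it at 5.44, and Reln, a secreted protein of quiescent stellate cells, was below it at 9.82 against 10.58 to 11.74. Pdgfrb, a growth factor receptor of these cells, was above it at 6.25 against 4.98 to 5.78. The mean over the 9 stellate markers measured was 8.24 in the H1047R tumour, 6.95 to 7.75 in the E545K tumours and 6.56 to 7.36 in the 6-month controls, with 4 markers above the E545K range, 1 below and all 9 detected. The part of these cells in the matrix values was not tested.

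**Figure D4:**
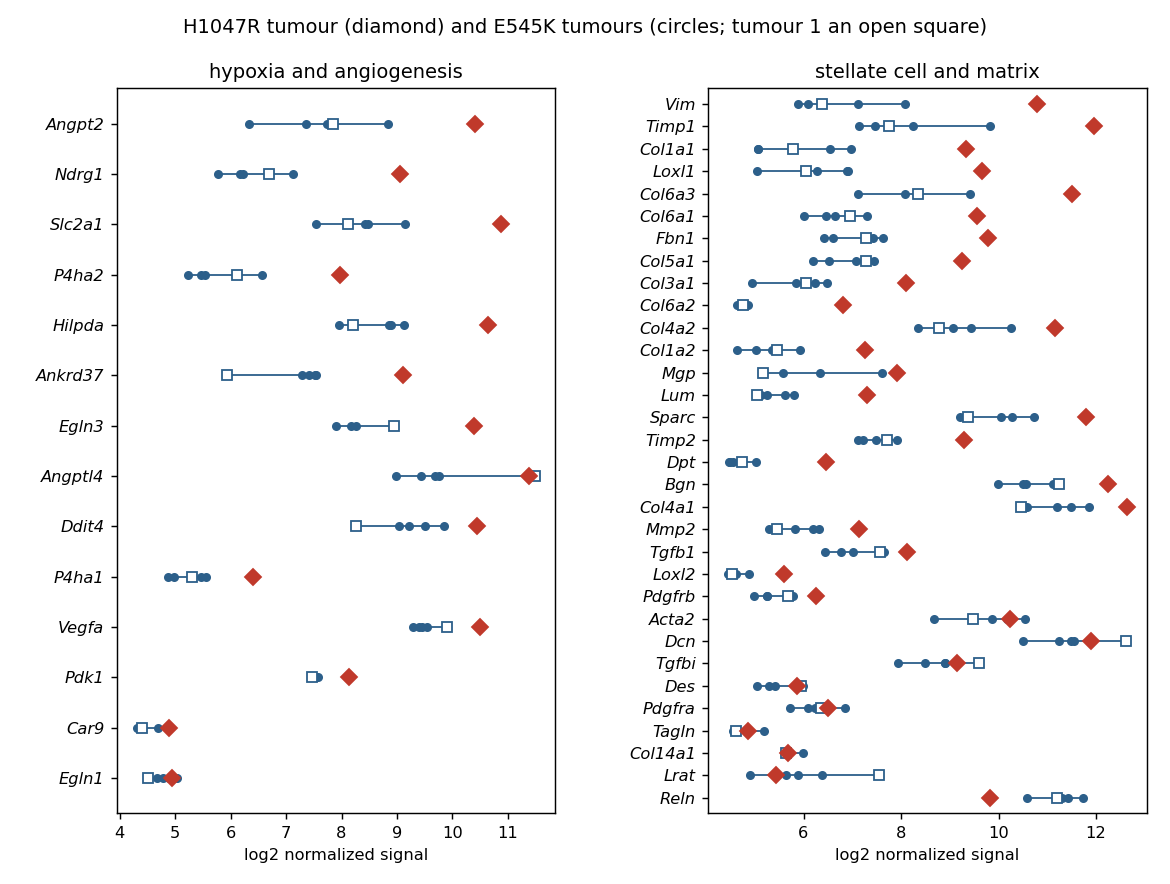
Log2 normalized signal (horizontal axis) of every tested member of the hypoxia and angiogenesis list (left) and of the stellate cell and matrix list (right) on the 6 tumour arrays. The H1047R tumour (red diamond) lies to the right of all E545K tumours (blue, tumour 1 an open square, line from lowest to highest) in 12 of 14 and 23 of 32 genes.

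Immune genes divided by cell type. Of 12 T and NK cell genes, 9 were above the E545K range and none below (median difference 0.75, none called and none by more than log2 1), and the counts were the same without E545K tumour 1. Ccl5 was at 7.95 against 7.38, 7.28, 5.57, 5.92 and 6.32, and Thy1, also on fibroblasts, at 8.09 against 6.18 to 7.67. The mean over the 5 T and NK markers measured of 7 was 5.49 against 4.60 to 5.09 in the E545K tumours. Of 19 antigen presentation genes, 8 were above and 3 below (12 and 3 without E545K tumour 1), and the 8 held the class II genes H2-Ab1 (11.96 against 9.67 to 10.80), H2-Eb1 (10.80 against 8.69 to 9.63), H2-Aa and Cd74. Macrophage genes had a median difference of 0.20. Of 22 tested 6 were above (27.3%, where 19.8% of all genes were) and 7 below (31.8%, where 20.1% of all genes were). Without E545K tumour 1 these counts were the same, where 26.2% of all genes were above and 26.5% below. Lgals3, galectin 3, was at 13.36 against 9.93 to 11.83. Clec4f and Vsig4, surface receptors of resident Kupffer cells, were at 5.53 against 6.93 to 10.74 and at 6.01 against 7.34 to 10.83, both highest in E545K tumour 1. Marco, Timd4 and Folr2, markers of resident macrophages, were not detected in the H1047R tumour, and their E545K levels are not given here. Of 9 neutrophil genes 4 were below the range, 4 inside and 1 above (median difference 0.03). Without E545K tumour 1, 4 were below and 3 above. S100a8 and S100a9 were among those below, at 5.55 and 4.91 against 6.11 to 8.24 and 5.75 to 8.18. The mean over the macrophage markers (9 of 10 measured) was 7.34 against 7.45 to 9.63. That over the neutrophil markers (4 of 7) was 4.90, near the detection limit, against 5.22 to 6.86. Erythroid genes were low. Of 8 tested, 6 were below the range and none above, with or without E545K tumour 1, with Slc4a1, the red cell anion exchanger, at 4.70 against 6.48 to 8.47, and Hbb-bt, an adult beta globin, at 6.99 against 8.70 to 9.81. Red cell RNA moves with the blood left in a sample, which was not measured.

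Signalling genes downstream of growth factors differed by list, where 19.8% of all genes were above the range and 20.1% below. Above it were 66.7% of ERK feedback, 64.7% of AP-1 and immediate early and 13.8% of PI3K-AKT-mTOR genes. Without E545K tumour 1 these shares were 66.7%, 76.5% and 34.5%, where 26.2% of all genes were above. Of 12 ERK feedback genes 8 were above and none below, with or without E545K tumour 1 (median difference 0.57, none called). Dusp4, a phosphatase that ERK induces against itself, was at 9.12, where the highest E545K tumour was at 7.75, and Ier3, an immediate early survival gene, at 12.85 against 9.95, 10.84, 10.41, 9.46 and 11.03. Of 17 AP-1 and immediate early genes 11 were above and none below (13 and none without E545K tumour 1), among them Klf4 (6.54 against 4.57 to 5.18) and Fosl2 (8.42 against 6.68 to 7.28). Of 29 PI3K-AKT-mTOR genes 21 lay inside the range, 4 above and 4 below, but 10 lay above and 4 below without E545K tumour 1. Trib3, an AKT-binding pseudokinase, was inside at 8.72. Irs2, the insulin receptor substrate that insulin represses, was below at 6.42 against 7.11 to 8.44. Of 24 cell division genes 18 lay inside, 5 above and 1 below (7 above and 2 below without E545K tumour 1), with Mki67 at 5.31 inside the range and Aurka at 7.63 against 5.06 to 6.22. Of 15 heat shock genes, a list added after the value of Hspa1a had been seen, 9 were above and 1 below (10 and 1 without E545K tumour 1).

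Secreted acute-phase genes and genes of fat synthesis were partly above the range, 30.4% and 40.9% of them, where 19.8% of all genes were. Without E545K tumour 1 both shares were the same, where 26.2% of all genes were above. Saa1 and Saa2, serum amyloid A proteins with near-identical sequences, were at 13.86 against 10.52 to 11.81 and at 8.52 against 5.19 to 6.05, while 13 of 23 acute-phase genes were inside the range (7 above and 3 below, with or without E545K tumour 1), Lcn2 among them (14.83 against 14.59 to 14.83), and Lbp, the endotoxin-binding protein, was below (8.64 against 9.78 to 10.34). Saa1 also lay inside the range of the 6-month controls. Of 22 genes of fatty acid synthesis 9 were above and none below (median difference 0.55; 9 and 1 without E545K tumour 1), with Pnpla5 at 8.80 against 5.72 to 7.56 and Elovl6 at 11.41 against 9.46 to 10.81. Of 17 lipid droplet genes 9 were above and 4 below, with or without E545K tumour 1. Those above by more than log2 1 were Cidea, Hilpda and Fitm1, which binds fat and promotes droplet formation (6.35 against 4.56 to 4.94), and Lpl, the lipase that frees fatty acids from lipoproteins, was below at 10.63 against 12.20 to 12.86.

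Genes of fetal liver that mark liver tumours split into those shared with the E545K tumours and those low in the H1047R tumour. Of 16 oncofetal genes tested none lay above the E545K range, 8 lay inside and 8 below (median difference -0.77, none called; none above and 9 below without E545K tumour 1). H19, an imprinted noncoding RNA of fetal liver, was at 5.07 in the H1047R tumour and at 13.90, 10.72, 13.10, 7.69 and 8.47 in the E545K tumours. Gpc3, glypican 3, a surface proteoglycan used as a marker of human hepatocellular carcinoma, was at 5.14 against 11.54, 11.16, 12.24, 9.42 and 8.54. Igf2, the fetal growth factor that shares its imprinted locus with H19, was not detected in the H1047R tumour and was at 8.57, 8.70, 11.49, 5.98 and 5.49 in the E545K tumours, at least 10.9-fold higher on average. In all 3 genes the H1047R tumour lay below every E545K tumour, and E545K tumours 4 and 5 were the lowest of the 5. The differences, -5.70 (SE 2.27) for H19, -5.44 (SE 1.29) for Gpc3 and -3.55 (SE 2.01) for Igf2, did not pass (adjusted p = 0.450, 0.176 and 0.654, limma). Gpc3 lay inside the range of the 6-month controls, 4.30 to 5.32. Second probes for H19 and Gpc3 also lay below the E545K range.

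Other fetal and tumour genes were as high in the H1047R tumour as in the E545K tumours. Cpe, a prohormone-processing enzyme, was at 11.59, inside 10.39 to 11.70, and Ly6d, a lipid-anchored surface protein, at 12.11, inside 11.32 to 12.23, where the 6-month controls lay at 4.53 to 4.79 and 4.62 to 5.99. Akr1c18, which inactivates progesterone, was at 11.03, Golm1, a Golgi membrane protein, at 10.14, and Tspan8, a tetraspanin, at 10.26, all inside. Spink1, a trypsin inhibitor (11.56 against 12.30 to 13.66), and Afp, alpha-fetoprotein (6.57 against 7.02 to 8.94), were below the E545K range and above the 6-month controls.

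**Figure D5:**
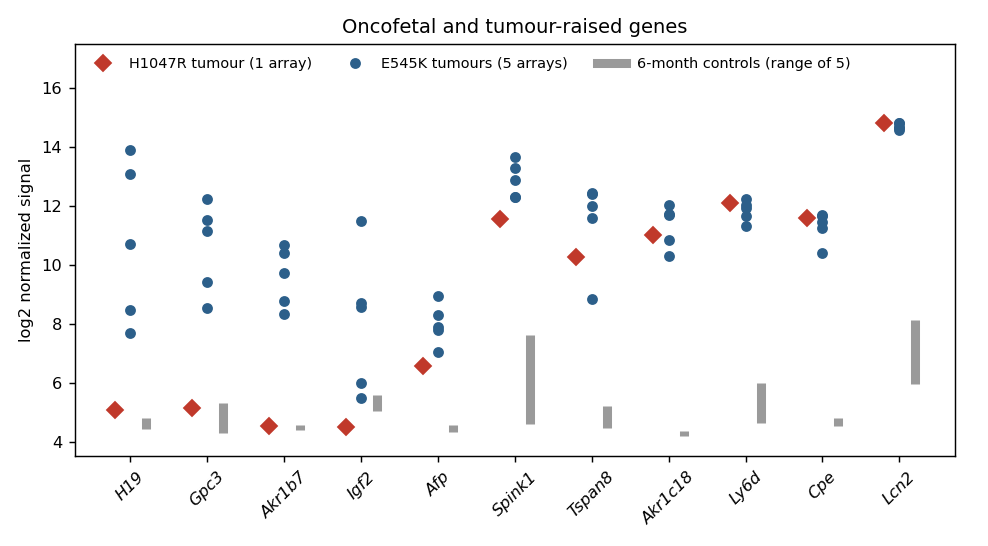
Log2 normalized signal (vertical axis) of 11 oncofetal or tumour-raised genes in the H1047R tumour (red diamond), each of the 5 E545K tumours (blue points) and the range of the 5 arrays of 6-month controls (grey bar). The H1047R tumour sits at or near the controls in H19, Gpc3, Akr1b7 and Igf2 and among the E545K tumours in Tspan8, Akr1c18, Ly6d, Cpe and Lcn2.

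The widest gap below belonged to Akr1b7, an aldo-keto reductase that detoxifies lipid aldehydes and has close relatives in its family. It was not detected in the H1047R tumour and was at 10.40, 10.68, 9.72, 8.77 and 8.33 in the E545K tumours, so it was at least 31.7-fold lower (adjusted p = 0.102, limma). Other genes with wide gaps that did not pass were Tff3, a secreted trefoil peptide (6.12 against 8.77 to 11.01), and Fcna, a ficolin of resident macrophages (5.63 against 8.19 to 10.83). Slc16a5, a monocarboxylate transporter, was at 4.84 against 7.37 to 9.70, Rdh9, a retinol dehydrogenase, at 7.10 against 9.60 to 10.81, and Cyp4a14, a fatty acid hydroxylase under PPAR alpha, at 4.61 against 6.97 to 11.04. Elapor1, an endosomal and lysosomal membrane protein, was at 6.03 against 7.95 to 9.95 and Nipal1, a magnesium transporter, at 4.61 against 6.48 to 7.38. Hbb-bs, an adult beta globin with a near-identical copy, was at 9.21 against 11.38 to 12.95, and Cyp4f15, a fatty acid hydroxylase, at 6.21 against 8.15 to 9.43. In the 6-month controls Tff3 ran from 5.08 to 10.82, Nipal1 from 4.45 to 7.97 and Hbb-bs from 8.68 to 11.77. The H1047R tumour lay inside these ranges and that of Akr1b7, below those of Fcna, Slc16a5, Rdh9, Cyp4a14 and Cyp4f15 and above that of Elapor1. At 3 months Akr1b7 reached 9.66 with H1047R and 9.93 with E545K (medians 4.55 and 4.39).

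Lists of hepatocyte metabolism differed in where they lay. Of 21 genes of cholesterol synthesis and transport 19 lay inside the E545K range, none above and 2 below (none and 3 without E545K tumour 1). Of 19 Wnt and pericentral genes 11 lay inside, 1 above and 7 below, with or without E545K tumour 1. Of 26 genes of amino acid breakdown 21 lay below the E545K range, 5 by more than log2 1, and none above, with a median difference of -0.98 (none called); without E545K tumour 1 the counts were 22 below and 1 above. Agxt, which clears glyoxylate, was at 8.27 against 9.59, 11.41, 10.56, 9.51 and 10.33. Hal, which opens histidine breakdown, was at 9.23 against 11.09, 12.24, 10.44, 10.50 and 10.48. Sds, a serine dehydratase, was at 5.81 against 8.99, 10.89, 8.96, 6.47 and 7.01, and Oat, ornithine aminotransferase, at 8.62 against 11.62, 11.58, 10.78, 9.57 and 10.20. The H1047R tumour was the lowest of the 6 in each, and for Sds and Oat E545K tumours 4 and 5 came closest.

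Periportal hepatocytes, near the inflowing blood, make glucose and urea. Of 15 periportal genes 11 lay below the range and 1 above (median difference -1.38; 12 and 2 without E545K tumour 1). Pck1, the gate of glucose synthesis, was at 5.42 against 8.14, 8.82, 7.88, 7.28 and 8.03, lower than in all 5 E545K tumours by 1.86 or more. Cps1, the first urea cycle enzyme, was at 9.28 against 9.74, 12.67, 12.18, 11.74 and 11.34. The member above was Sox9, a factor of bile duct cells, at 12.08 against 9.96 to 10.75, and 10 of 15 biliary and progenitor genes were above the range (11 without E545K tumour 1), among them Anxa3 at 11.92 against 7.91 to 9.38 (adjusted p = 0.0725, limma) and Krt8 at 13.52 against 12.19 to 12.80. Only 2 of 5 biliary markers, Krt7 and Sox9, were measured, with a mean of 8.44 against 7.40 to 7.74, and their part was not tested.

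Cytochrome P450, coagulation and growth hormone genes followed. Of 22 P450 genes 11 were below and none above (13 and none without E545K tumour 1). Of 31 coagulation and complement genes 18 were below and 3 above (21 and 3 without E545K tumour 1), with Klkb1, plasma prekallikrein, at 8.22 against 9.55 to 10.64 and Serpinc1, antithrombin, at 7.51 against 8.73 to 9.16. Cyp2c50 was at 6.07 against 7.74 to 12.00. Of 19 genes of the growth hormone and IGF axis 6 were above and 8 below (7 and 9 without E545K tumour 1). The carrier proteins Igfbp3 (11.82 against 6.88 to 10.02) and Igfbp5 (10.44 against 6.77 to 8.27) were above, and Igfals, the liver-made partner of IGFBP3, was below at 7.57 against 11.19, 10.60, 9.64, 10.31 and 9.84. Below the range were also Prlr, the prolactin receptor (6.45 against 8.65 to 10.36), Cish, a STAT5-induced feedback gene (6.69 against 8.38 to 10.33), and Igfbp2 (6.70 against 7.88 to 11.17). For Prlr, 1 of 3 further probes lay inside the range, near the detection limit.

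A second question was how far genes that mark the E545K tumours hold in the H1047R tumour. They were chosen as E545K tumours against 3-month controls (limma, adjusted p under 0.05, at least 2-fold, groups not overlapping) and then placed in the H1047R tumour against the range of the 6-month controls, arrays that had no part in the choice. Of 891 genes higher in the E545K tumours, 704 (79.0%) were above the 6-month range in the H1047R tumour, 178 inside and 9 below, where 24.9% of all genes tested were above. Of 741 lower genes, 73.5% were below, 186 inside and 10 above, where 23.4% of all genes were below. Among the 10 highest of the E545K tumours named here, Lcn2, Ly6d, Akr1c18, Cpe, Rgs16, Tspan8, Cyp2b9, Cbr3 and Gstp2 lay inside the E545K range and Spink1 below it. The male liver gene Hsd3b5, a steroid reductase, was at 5.67 in the H1047R tumour against 4.46 to 5.10 in the E545K tumours and 11.52 to 12.23 in the 6-month controls. It was 1 of the 10 lowest genes of the E545K tumours. Of these, Hsd3b5, Serpina4-ps1, Elovl3, Mup9 and Cyp4a12a lay between the E545K tumours and the 6-month controls, and Sult2a8, Ces3b, Cyp4a12b and Susd4 lay inside the E545K range. Myl1 lay just above the E545K range and inside that of the controls. Gpc3 and Akr1b7 were among the higher genes that the H1047R tumour did not share.

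Against the 6-month controls the H1047R tumour had 571 genes higher (4.92%) and 268 lower (2.31%), together 7.24% of genes (limma, Benjamini-Hochberg), and the E545K tumours had 1274 higher and 1035 lower (19.9%), with 5 arrays in place of 1. The count for the H1047R tumour fell to 524 without 6-month control 2. Both comparisons share the controls. In the stellate cell and matrix list the median was 2.20 above the controls in the H1047R tumour and 0.33 in the E545K tumours, with 18 of 32 members called higher in the H1047R tumour. In the oncofetal list the medians were 2.17 and 4.78, with 9 of 16 called higher in the H1047R tumour. In the male-biased list they were -3.02 and -4.03, and in amino acid breakdown -1.72 and -0.67.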

How the data were processed

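RNA of 25 livers or liver tumours was hybridised to Illumina bead arrays. Intensities were deposited without normalization, 1 per probe and array, with a detection p-value each, per the file headers (scanner software and summarization not given in the sources used here). Processed intensities that the authors deposited for the same arrays have 1 common distribution on every array; no header or label says how they were made. A deposited log2 table of the authors' own comparison supplied probe annotation. Its values, named for E545K tumours against 3-month controls, correlated at 0.886 with that difference here and at 1.000 with E545K tumours against 6-month controls, so its values were not used for any result.

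Intensities of all 25 arrays were corrected with the detection p-values, quantile normalized and put on the log2 scale with an offset of 16 (neqc, limma 3.58.1, R 4.3.3). A probe had to have a detection p below 0.05 on 4 or more arrays, which 20349 of 45281 did. Of all probes, 33778 had a symbol, 658 of them updated through the RefSeq gene table. The probe with the highest mean stood for a gene, which left 11594 genes, 392 of them predicted models that were counted but not named. Between 14536 and 18391 probes were detected per array, and the number of arrays limits the precision.

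The H1047R tumour was tested against the 5 E545K tumours with lmFit and eBayes, two-sided, with Benjamini-Hochberg adjustment over all genes, leaving 4 residual degrees of freedom. On simulated data of the same shape over 11594 genes, 5 of 100 genes set apart by log2 1 and 60 of 100 by log2 2 were recovered, with 1 false call. Genes not detected in 1 group have a lower bound of the fold, taken against the lowest detected signal of each array.

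Named were the 15 genes with the largest differences on each side among those called, filled up with the widest gaps beyond the E545K range, up to 4 called or 2 most different members of each list, the 10 highest and 10 lowest of the E545K tumours against 3-month controls, and a set of liver tumour genes. Further list members were named after their values were seen. Some genes that these rules name are not reported here. The members, the 49 gene lists and these rules were chosen with earlier results of these data known, and a list of heat shock genes was added later. Alternatives covered the background correction, the authors' values, the filter, the probe choice, the samples in the fit, the spread model and each left-out replicate. Figures were drawn with matplotlib 3.10.9.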

Additional observations from a re-analysis of the deposited data

Results flagged for a closer look

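Among the named genes, each group of 5 tumours or 5 controls was searched for a single array far from the rest, by the gap to the nearest array as a share of the group's range. Of 118 such searches 12 found one. The genes were partly named by these same values and the searches reuse the same arrays, so this count cannot be set against chance. E545K tumour 1 accounted for 6 of the 9 in the tumours. It was low in Tspan8, at 8.86 with the next at 11.59 (share 0.761), and in Gstp2, a glutathione transferase, at 9.91 with the next at 11.03 (0.8294). It was high in Hsd3b5, at 5.10 over 4.55 (0.862), in Sult2a8, a bile acid sulfotransferase, at 6.67 over 4.93 (0.731), in Susd4, a complement regulator, at 6.32 over 4.73 (0.777), and in Glul, the pericentral glutamine synthetase, at 8.26 over 5.56 (0.778). E545K tumour 5 was high in Ccl8, at 5.18 over 4.88 (0.758), and in Chst1, at 6.07 over 4.84 (0.815), and E545K tumour 4 was low in Nupr1, at 7.66 under 9.25 (0.814). Of the 6-month controls, number 4 was high in Spink1, at 7.61 over 5.43 (0.721), and in Myl1, a skeletal muscle myosin chain, at 9.43 over 4.67 (0.934), and low in Cyp4a12a, a male-biased hydroxylase, at 11.38 under 12.30 (0.759). The H1047R tumour, as a single array, could not be searched.

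Rdh9 lay on opposite sides of the 6-month controls. The H1047R tumour was at 7.10, below all 5 controls, and all 5 E545K tumours were above them. The H1047R tumour was 3.13 log2 units under the E545K mean (a difference of -3.13). Because both effects share the controls, the difference between them is this same value, which did not pass over all genes.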

How the results depend on the processing

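The number of genes called between the tumours depended on most settings. In place of 10 it was 21 with no background correction, 20 with the authors' processed values, 18 with no filter, 315 with all 25 arrays in 1 fit (72.4% of them higher), 80 with the 6-month controls in the fit and 40 with a trended robust spread. It was 7 with the tumours normalized alone, 12 with a tumour-based filter and 8 by probe. Leaving out 1 E545K tumour gave 0 to 33. Gaps over log2 1 numbered 100 above and 35 below with no background correction, and 103 and 36 with the authors' values. The H1047R tumour ranked 1 for standing alone under both of these settings, and 1 to 2 with 1 E545K tumour left out. Of the higher E545K genes, 83.6% and 83.3% kept their side under these settings (lower genes 81.0% and 80.7%), and 94.7% and 93.1% with both control groups exchanged. Leaving out 1 E545K tumour gave 69.1% to 80.3% for the higher genes. Against 6-month controls the H1047R count was 524 to 973 with 1 control left out. The direction turned with 1 E545K tumour left out for Rgs16 (-0.30 to 0.37), Ces3b (-0.056 to 0.588), Susd4 (-0.37 to 0.14) and Pik3ca (-0.084 to 0.117), none of them called. The cause of these changes was not tested. No paired analysis was possible between the tumours because they share only 1 replicate number. E545K tumours and 6-month controls share numbers, but same-numbered arrays did not deviate together in 3 of 5 pairs (correlations 0.46, 0.00, 0.41, -0.26 and -0.02), and a replicate block moved that count from 2309 to 2675. Signals near 4.59 to 4.69 lie at the detection limit, where differences are compressed.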

Other observations

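Vessel genes of the H1047R tumour lay above the E545K range in 39.1% and below it in 21.7%, where 19.8% and 20.1% of all genes did. Of 23 endothelial genes tested 9 were above it and 5 below (11 and 6 without E545K tumour 1), none called. Clec4g, a lectin of liver sinusoidal endothelium, was at 7.97 against 8.86 to 12.10, and Gpr182, a scavenging receptor of the same cells, at 5.05 against 5.85 to 8.28. Emcn, a sialomucin of capillaries and veins, was above at 9.58 against 6.67 to 8.72, and so were Cd34 (6.56 against 4.65 to 5.89) and Cdh5, the endothelial cadherin (8.04 against 5.95 to 7.58). The mean over the 7 endothelial markers was 6.69, inside the E545K values of 6.25 to 7.73.

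Of 24 interferon genes 9 lay below the E545K range and 3 above (9 and 4 without E545K tumour 1), with a median difference of -0.40 and none called. Usp18, which removes the ubiquitin-like ISG15, was at 8.58 against 8.73 to 11.15, while Gbp2, a guanylate-binding protein, was above at 8.88 against 6.72 to 8.30. Of 17 bile acid genes 9 were below and none above (9 and 1 without E545K tumour 1), among them Abcb11, the bile salt export pump, at 7.57 against 8.19 to 10.23. Of 20 hepatocyte transcription factors 12 were below and 4 above (13 and 5 without E545K tumour 1), where 20.1% and 19.8% of all genes were. Of 24 ribosomal protein genes 12 were above and none below (17 and none without E545K tumour 1), with small differences (median 0.24). Of 10 imprinted genes 5 were below and 2 above (5 and 3 without E545K tumour 1), with Meg3 at 5.26 against 6.01 to 7.54 and Cdkn1c at 5.58 against 5.80 to 8.04. Glul was at 4.88 in the H1047R tumour, inside the range of 4.79 to 8.26, and the Wnt targets Axin2 (4.41) and Lgr5 (4.37) were also inside their E545K ranges. Alb, albumin, was below its range at 9.29 against 9.72 to 10.69.

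At a detection p under 0.01, 81 probes were detected in the H1047R tumour and on no other tumour array. The same count was 21, 19, 13, 8 and 9 for E545K tumours 1 to 5. At a detection p below 0.05 the H1047R array also had the most probes detected of all 25 arrays, 18391. The highest log2 signal in its set of 81 was 6.20. Car12, Bean1 and Pgf head the H1047R set.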
